A study of Mus musculus with 204 samples.

Results

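The 9 immediate early genes Fos, Fosb, Junb, Egr1, Arc, Npas4, Nr4a1, Ier2 and Dusp1 were taken by name from the 49492 genes measured in single cells of the mouse distal colon. The cells came from VGLUT2-tdTomato mice, in which a red fluorescent reporter marks cells of the vesicular glutamate transporter 2 lineage (the gene is Slc17a6). Per the labels' protocols, the muscle layers that hold the myenteric plexus were dissociated with enzymes, the cells were kept in culture overnight, and fluorescent cells were picked by hand, all labelled as neurons. No treatment, age, sex or animal is named, and all cells share the reporter, the dissociation and the culture, so no unstimulated or freshly taken group stands beside them. The cells lie on 3 plates of 66, 66 and 72 cells, the grouping that the labels give. The column names of the deposited table carry 1 tag for plate 1 and a second tag that plates 2 and 3 share.

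A cell was counted as a neuron where 3 or more of the 5 pan-neuronal transcripts Elavl3, Elavl4, Snap25, Stmn2 and Syt1 reached a log2(RPKM + 1) of 2, which is an RPKM of 3 (reads per kilobase of gene, scaled to the depth of the cell). This held for 149 cells (73%, exact Clopper-Pearson 95% interval 66.4% to 79%), 53 on plate 1, 43 on plate 2 and 53 on plate 3. The other 55 cells, 13, 23 and 19 by plate, go against the label of neuron. The recovered depth ran from 453108 to 14310837 reads per cell, with a median of 4218850 in neurons and 3964070 in the other cells. The smooth muscle list holds 8 markers, and a cell was said to carry it where at least 4 were detected: 28 of the 55 other cells did, and 34 of the 149 neurons. Their summed level had a median of 14.5 RPKM in neurons (range 0.6 to 27281) and 310 RPKM in the other cells (range 2.7 to 58417). Cells of 1 plate are not replicates of a condition and no animal is named, so no test between classes was made. The intervals on shares cover counting error only.

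Immediate early genes are transcribed within minutes of a stimulus without new protein synthesis, through kinase cascades that act on transcription factors such as SRF with its Elk partners and CREB. In neurons, depolarisation and calcium entry are the classical stimuli, and Fos and Arc are widely used as marks of recent activity, including in enteric neurons after stimulation of the gut. Growth factors, stretch, injury and the dissociation of tissue also induce many of them, in muscle and glia as well as in neurons.

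The proximal promoters are shown because all of these genes share the property of rapid induction, and the cyclic AMP response element bound by CREB, TGACGTCA, or its core TGACG is a sequence that the windows can be searched for. RefSeq (GRCm38.p6) held promoter windows for 6 members. In the following lines, each 5′ to 3′ on the strand of the gene and lying before the RefSeq start, without bases that GENCODE M21 annotates as exon, capitals mark TGACG on either strand (CGTCA on the opposite strand) and the full element.
Fos, chr12:85473640-85473889, plus strand: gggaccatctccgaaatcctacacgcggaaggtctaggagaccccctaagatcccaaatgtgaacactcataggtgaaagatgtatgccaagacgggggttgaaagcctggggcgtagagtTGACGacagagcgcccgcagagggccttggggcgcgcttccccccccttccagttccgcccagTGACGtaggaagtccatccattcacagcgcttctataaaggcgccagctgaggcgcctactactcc
Junb, chr8:84978749-84978998, minus strand: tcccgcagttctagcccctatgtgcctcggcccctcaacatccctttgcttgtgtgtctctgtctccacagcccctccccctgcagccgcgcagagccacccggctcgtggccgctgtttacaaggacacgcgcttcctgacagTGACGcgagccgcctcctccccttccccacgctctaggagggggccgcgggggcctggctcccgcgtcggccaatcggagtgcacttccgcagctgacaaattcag
Nr4a1, chr15:101266596-101266845, plus strand: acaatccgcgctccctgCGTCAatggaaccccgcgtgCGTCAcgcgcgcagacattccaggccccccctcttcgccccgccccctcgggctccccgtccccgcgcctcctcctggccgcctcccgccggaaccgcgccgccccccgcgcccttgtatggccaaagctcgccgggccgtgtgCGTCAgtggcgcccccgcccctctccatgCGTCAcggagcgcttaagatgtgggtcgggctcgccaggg
Dusp1, chr17:26508520-26508722, minus strand: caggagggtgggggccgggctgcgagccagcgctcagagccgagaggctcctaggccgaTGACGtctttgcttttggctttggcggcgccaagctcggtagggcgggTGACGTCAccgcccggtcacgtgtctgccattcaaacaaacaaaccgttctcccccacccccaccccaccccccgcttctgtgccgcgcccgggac
For Nr4a1 and Dusp1 the RefSeq start lies inside the longer GENCODE span of the gene, so their windows are within that span. The search covered the 250 bases before each RefSeq start, and for Npas4 all of these bases are annotated as exon in GENCODE, so none is shown and its matches are exonic. The core was present on 1 strand or the other in 6 of 6 windows (Fos, Fosb, Junb, Npas4, Nr4a1 and Dusp1), against 17.8% of 32807 promoter windows of 250 bases. Nr4a1 held 4 copies and Fos 2. The full element TGACGTCA, which contains the core on both strands, was found in Dusp1 alone, against 1.55% of all windows. The AP-1 motif TGANTCA (6.75% of windows) and the SRF-binding CArG box (1.47%) were in 0 of 6, and the GC box GGGCGG was in 5 of 6, against 32.7%. Bases farther upstream were not searched, and Egr1, Arc and Ier2 had no window. The counts of 0 therefore do not show that the members lack such sites. A match is a description of these letters and not evidence of binding.

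In neurons the members fell into 3 tiers of abundance. Dusp1, Junb and Ier2 were detected in nearly every neuron, Egr1, Fos and Nr4a1 in a share of them, and Fosb, Arc and Npas4 in few. RPKM is scaled by gene length, so levels can be set side by side between genes, but the ranges of neighbours in the order overlapped for all of them.

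**Figure D1:**
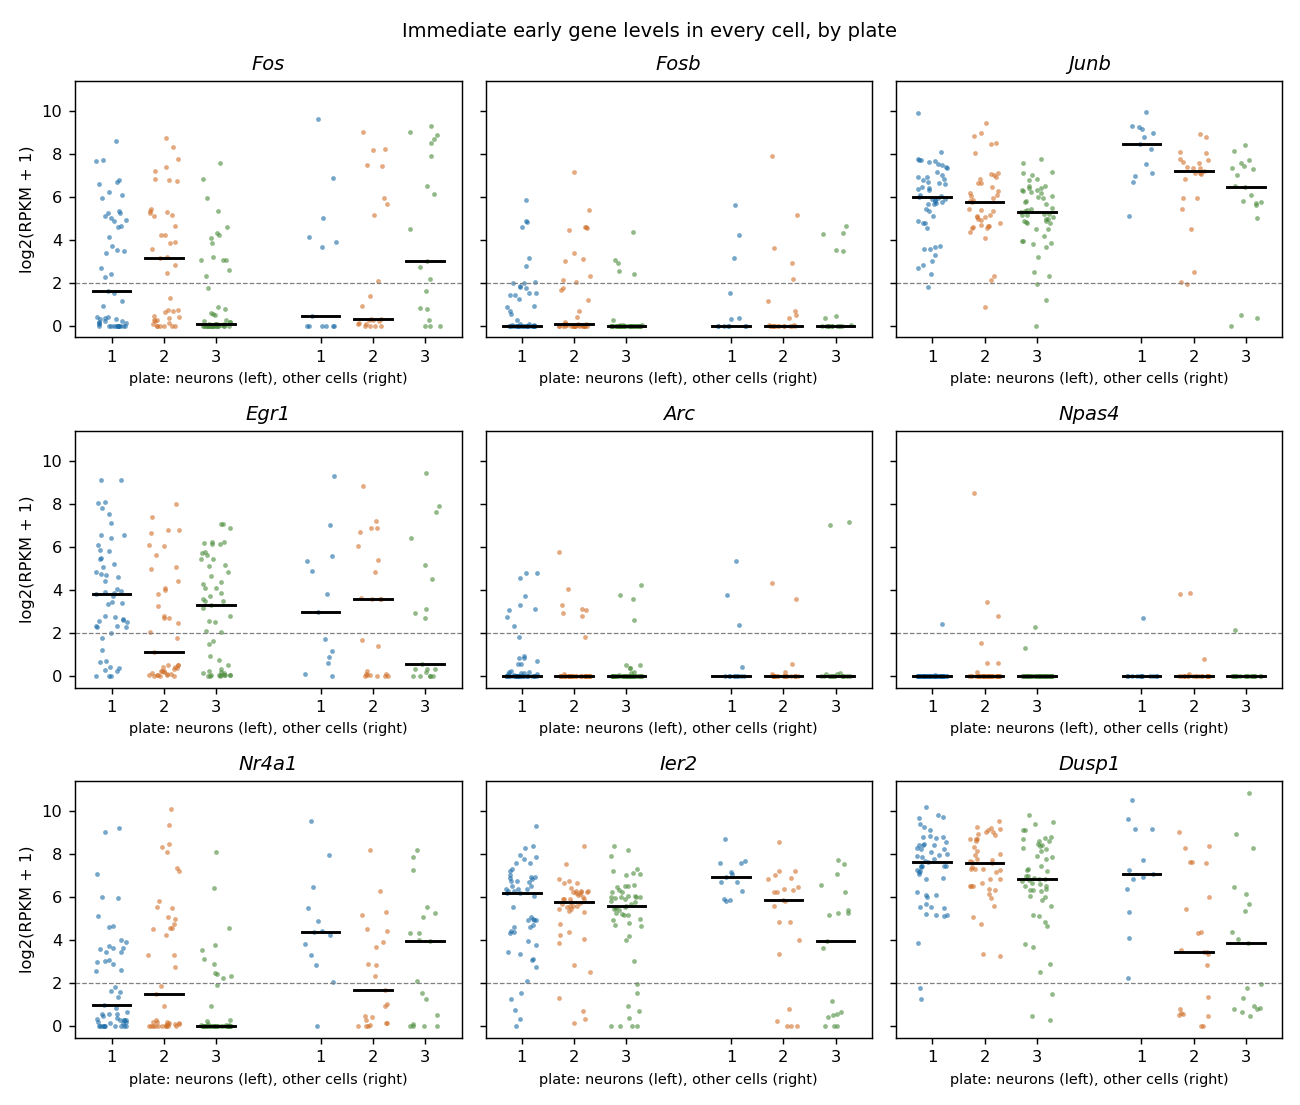
Level of each of the 9 genes as log2(RPKM + 1) in every cell (points), by plate, for 149 neurons on the left and 55 other cells on the right of each panel. Black bars are medians and the dashed line is the detection threshold of 2. Dusp1, Junb and Ier2 lie above the line in most neurons, while Fos, Egr1 and Nr4a1 spread from 0 to above 8.

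Fos, the partner that dimerises with Jun proteins to form the AP-1 transcription factor (chr12:85473890-85477273 in mm10), was detected in 65 of 149 neurons (43.6%, interval 35.5% to 52.0%). The level ran from 0 through a median of 0.73 to 8.74 on the log2(RPKM + 1) scale, and neurons with the transcript had a median of 4.94. By plate it was detected in 26 of 53, 24 of 43 and 15 of 53 neurons, with medians of 1.64, 3.18 and 0.10. Fos was thus split between neurons at or near 0 and neurons at high levels: only 5 lay between 1 and 2, and the top 10% of neurons held 67.6% of the summed RPKM. Fosb, a paralogue that forms AP-1 in the same way (chr7:19302696-19310051), was detected in 26 neurons (17.4%, interval 11.7% to 24.5%), in 9, 12 and 5 by plate, with a highest level of 7.15. Junb, a Jun-family subunit of AP-1 (chr8:84974484-84978718), was detected in all but 5 neurons (96.6%), with a range of 0 to 9.90 and a median of 5.75. Its plate medians were 6.01, 5.75 and 5.30, and its quartiles of 4.78 and 6.64 show a narrower spread than that of Fos. Junb overlaps Prdx2, and Dusp1 overlaps Ergic1 and Gm8225, on the opposite strand. The strand setting of the counting is not given in the sources used here, so reads of shared stretches cannot be told apart.

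Egr1, a zinc-finger transcription factor (chr18:34859823-34864984), was detected in 95 neurons (63.8%, interval 55.5% to 71.5%), with a median of 2.78 and a highest level of 9.15. It was present in 42 of 53, 20 of 43 and 33 of 53 neurons on plates 1, 2 and 3, with medians of 3.80, 1.11 and 3.31. The order of Egr1 and Fos therefore turned on plate 2, where the Fos median was the higher one. Where detection also had to reach 1% of the highest value on the same plate, the Egr1 share was 51.7%. Nr4a1, an orphan nuclear receptor (chr15:101254269-101274795), was detected in 53 neurons (35.6%, interval 27.9% to 43.8%), with a median of 0.28 and a highest level of 10.11. It was found in 22, 20 and 11 neurons by plate, and 87.9% of its summed RPKM lay in the top 10% of neurons. Fos, Fosb and Nr4a1 each had their lowest share on plate 3, at 28.3%, 9.43% and 20.8%. Npas4, an activity-dependent transcription factor restricted largely to neurons (chr19:4984355-4990316), was detected in 5 neurons (3.36%, interval 1.10% to 7.66%). Among the 55 other cells it was detected in 4. A single neuron of plate 2 at 8.51, with 750 reads of the gene among 631042, held 92.7% of its summed RPKM in neurons. The same cell had the highest Fos (8.74) and Nr4a1 (10.11) of all neurons. This neuron carried the smooth muscle list, and the part of that marker signal in its values was not tested.

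Arc, whose protein acts on synaptic receptor traffic (chr15:74669083-74672570), was detected in 20 neurons (13.4%, interval 8.40% to 20.0%), in 9, 7 and 4 by plate, with a highest level of 5.77. Ier2, a nuclear early-response protein (chr8:84661331-84662852), was detected in 87.9% of neurons (interval 81.6% to 92.7%) with a median of 5.76 and plate medians of 6.18, 5.76 and 5.58. Dusp1, the phosphatase that switches off MAP kinases (chr17:26505590-26562128), had the highest median of the 9 genes, at 7.42, a range of 0.29 to 10.19, and detection in all but 5 neurons (96.6%). Its plate medians were 7.66, 7.59 and 6.86. The deposited values of Npas4, Nr4a1 and Dusp1 imply gene lengths of 3277, 2474 and 2697 bases that differ from the annotation used here, so their gene models were others. After every cell was thinned to 453108 reads, the shares were close to those at full depth: Fos 42.3%, Egr1 63.8%, Nr4a1 33.6%, Arc 12.8% and Dusp1 96.0%.

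**Figure D2:**
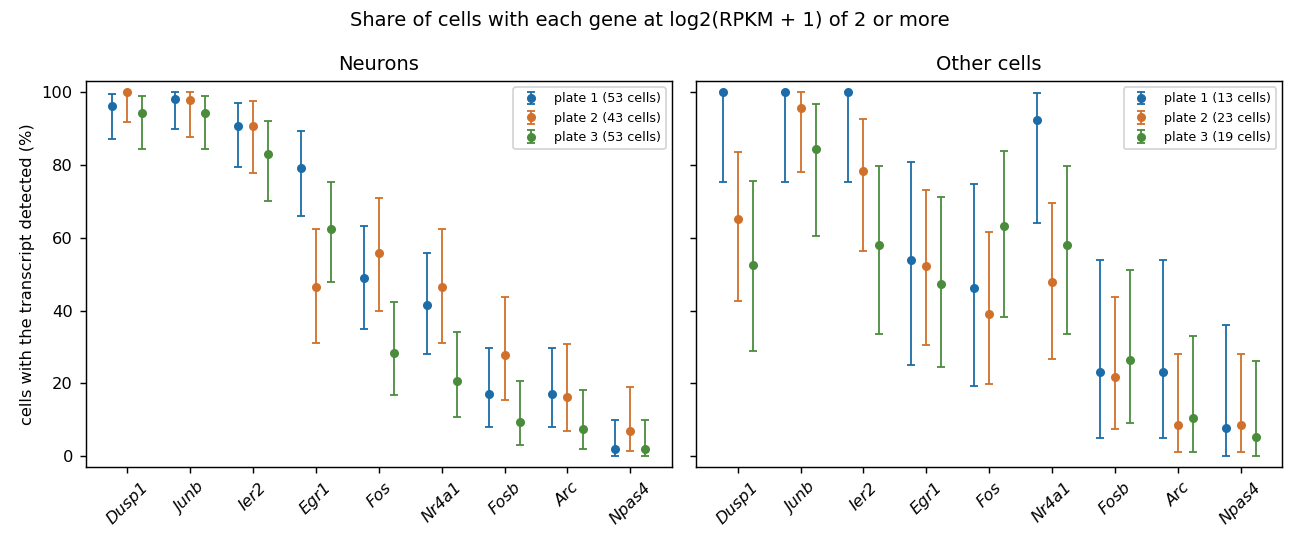
Percent of cells with each gene at log2(RPKM + 1) of 2 or more, by plate (colours), in neurons (left) and other cells (right). Bars are exact 95% intervals for counting error. In neurons the shares of Dusp1, Junb and Ier2 lie above 80% on every plate, and Npas4 lies below 10%.

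A neuron held a median of 4 of the 9 transcripts (5, 5 and 4 by plate), with a range of 1 to 8, and no neuron lacked all of them. At least 6 were detected in 41 neurons (27.5%), in 39.6% of those on plate 1, 32.6% on plate 2 and 11.3% on plate 3. Presence of Fos went with that of Nr4a1, which was detected in 40 of 65 neurons with Fos (61.5%) and in 13 of 84 without it (15.5%). Egr1 was detected in 73.8% and 56.0% of the same groups, Arc in 18.5% and 9.5%, and Dusp1 in 95.4% and 97.6%. These shares pool plates that differ in Fos. Within plates 1, 2 and 3, Spearman's rank correlation of Fos with Nr4a1 was 0.34, 0.41 and 0.33. With Egr1 it was 0.27, 0.40 and -0.02, and with Arc -0.18, 0.18 and 0.07, so neither kept 1 sign. Neurons with and without Fos had median depths of 4786920 and 4181990 reads, and 18 of 65 and 16 of 84 of them carried the smooth muscle list. Among neurons with the list 14 of 34 (41.2%) had 6 or more members, against 27 (23.5%) of the neurons without it, and the median mitochondrial shares of reads were 7.36% and 2.84%. The part of this marker signal, and of RNA quality, in the neuronal values was not tested.

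**Figure D3:**
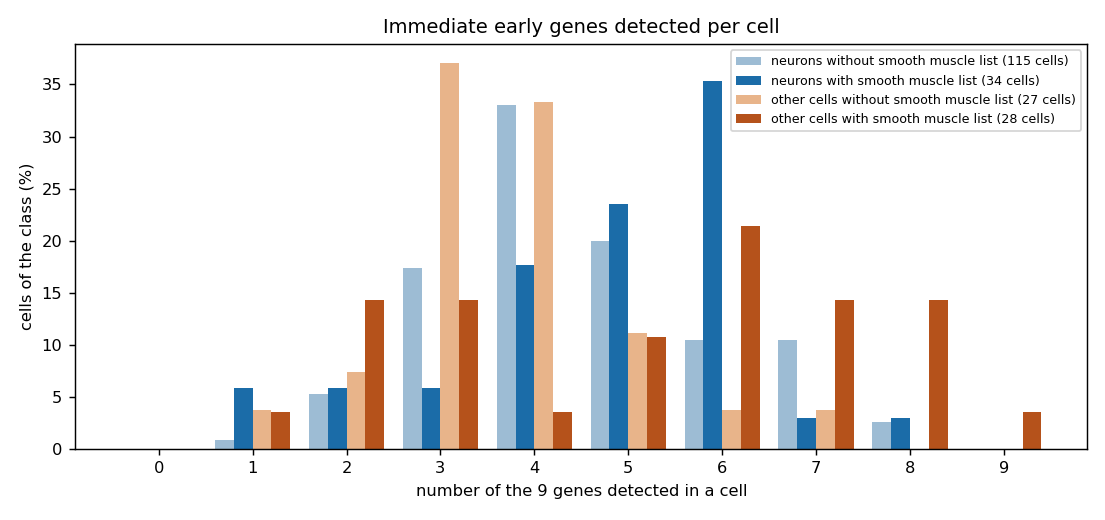
Percent of cells of each class (bars, starting at 0) by the number of the 9 genes detected, for neurons and other cells with and without at least 4 of 8 smooth muscle markers. Other cells with these markers extend to all 9 genes, and those without them centre on 3 and 4.

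Neurons and the other cells were compared within plates, as the difference between the mean log2(RPKM + 1) of the 2 classes. A gene was called where the mean of the 3 plate differences reached 1 in size and all plates had the same sign. Of the 9 members, 8 were detected in at least 10% of all cells and so were among the 14790 genes compared (Npas4 was not). Dusp1 was called higher in neurons and Junb lower. Of all genes compared, 28.4% were called, 22.9% as higher and 5.50% as lower in neurons, so 2 of 8 is no more than the background. The median difference over the 8 members was -0.21, against 0.46 over all genes compared.

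Dusp1 had medians of 7.66, 7.59 and 6.86 in neurons of plates 1, 2 and 3 and of 7.09, 3.44 and 3.85 in other cells. It was detected in 96.6% of neurons and in 38 of 55 other cells (69.1%, interval 55.2% to 80.9%). The differences were 0.18, 3.51 and 2.77, with a mean of 2.15, with plate 1, where all 13 other cells held the transcript, near 0. Junb ran the other way, with medians of 8.46, 7.22 and 6.47 in other cells and differences of -2.28, -0.78 and -0.57 (mean -1.21). Plate 1 carried much of it: without that plate the mean was -0.68 and Junb was not called, nor was it when 4 of the 5 neuronal markers were required (-0.98). Ranges of both genes overlapped between the classes on every plate.

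None of the remaining members was called, and Nr4a1, Fos, Egr1 and Ier2 did not keep 1 sign over the plates. After thinning, Fosb was found in 13 of 55 other cells (23.6%) and in 25 of 149 neurons (16.8%). Nr4a1 was detected in 34 of 55 other cells (61.8%, interval 47.7% to 74.6%) against 53 of 149 neurons, and its differences were -2.47, 0.49 and -2.38. Without plate 2 the mean of -2.42 was called. Fos was detected in 27 of 55 other cells (49.1%), with differences of 0.07, 0.36 and -2.93. Egr1 differed by 0.53, -0.68 and 0.31, and Ier2 by -1.57, 0.42 and 1.46. Arc was detected in 7 and Npas4 in 4 of the other cells, and their mean differences were -0.12 and -0.06.

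The other cells themselves fell apart by the smooth muscle list, a comparison added after the values were seen. In 28 cells with the list, Fos was detected in 21 (75%), Egr1 in 22 (78.6%) and Fosb in 13 (46.4%). In 27 cells without it the counts were 6, 6 and 0, and 0 of 27 allows a share of up to 11.1%, taking 3 cells as the limit for a count of 0 in place of an exact interval. Fos was 3.54, 3.90 and 2.70 higher in cells with the list on plates 1, 2 and 3, Egr1 3.10, 3.00 and 3.78, and Fosb 1.97, 1.97 and 1.91. These 3 of 8 members were called higher, where 1.41% of all genes were higher and 9.29% lower. The median member difference was 0.83, against -0.28 over all genes compared. By a rule set after this pattern was seen, Fosb was among 0.744% of genes detected in at least 10% of the cells with the list and in none without it.

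Junb, Ier2 and Dusp1 did not keep 1 sign over the plates, with differences of 1.32, -1.66 and -0.45 for Junb, 0.82, -2.55 and -0.76 for Ier2, and 0.96, -1.74 and 1.38 for Dusp1. Nr4a1 differed by 2.65, 0.99 and -0.10. At least 6 members were detected in 15 of 28 cells with the list and in 2 of 27 without it, although the former were shallower (median 2887020 against 4356160 reads). After thinning, Fos was found in 71.4% and 22.2%, Egr1 in 78.6% and 22.2%, and Fosb in 46.4% and 0%. Of other lists, 3 of 3 compared fibroblast markers and 3 of 13 heat shock genes were called higher in the same cells, and their part in the result was not tested. With carriers of the list left out of both classes, Egr1 was called higher in neurons than in other cells, by a mean of 1.54 (2.18, 0.13 and 2.31), Dusp1 by 2.47, and Junb was lower by -1.37. Fos then differed by 1.82, 1.80 and -1.52, from 6, 13 and 8 other cells per plate. Carriers among the other cells held the higher Fos and Egr1, so leaving them out lowers that class through the choice of cells. The 28.4% of all genes called belongs to the full classes. The share of all genes called with carriers left out is not given here, so these calls are not read as a result about the members.

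**Figure D4:**
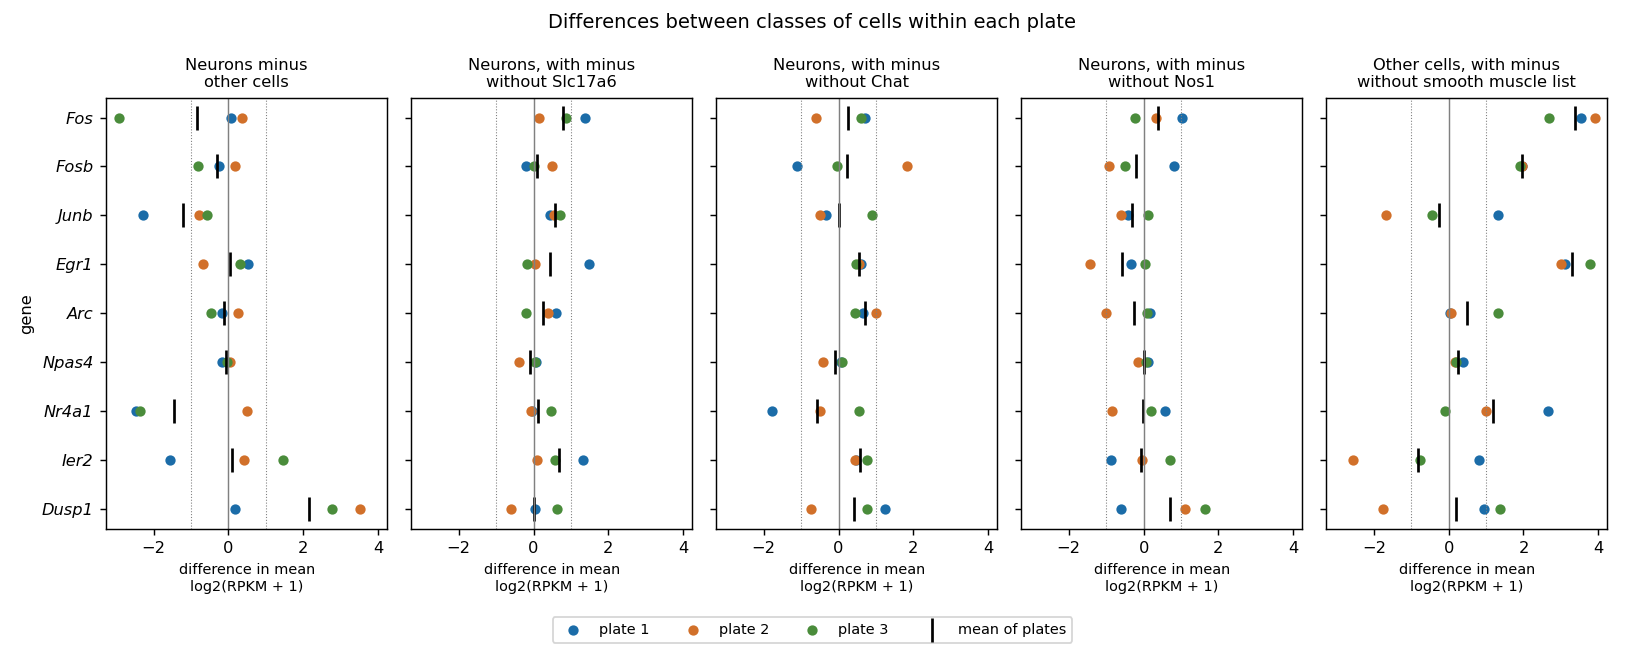
Difference in mean log2(RPKM + 1) between 2 classes of cells for each gene, within plates 1, 2 and 3 (coloured points) and as their mean (black bar). Dotted lines mark differences of -1 and 1. In neurons by transmitter gene the means lie within the dotted lines, while Fos, Fosb and Egr1 lie to the right of them on every plate in other cells with smooth muscle markers.

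Neurons were next divided by the transmitter transcripts Slc17a6 (86 of 149 neurons), Chat (choline acetyltransferase, all but 42) and Nos1 (neuronal nitric oxide synthase, 57), each detected at the same threshold. None of the 8 members compared was called in any of these divisions. Of all genes compared, 4.39% were called for Slc17a6 (3.89% higher and 0.500% lower), 9.43% for Chat (9.06% and 0.372%) and 1.11% for Nos1 (0.690% and 0.419%). No test stood behind these calls, so no p-value accompanies the counts of 0. The median member differences were 0.35, 0.33 and -0.14, against 0.22, 0.35 and 0.03 over all genes compared.

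Arc differed by Chat in its detection. It was detected in 20 neurons with Chat (18.7% of them, interval 11.8% to 27.4%) and in 0 of 42 without it, which allows a share of up to 7.14% by the same limit of 3 cells. The counts were 9 of 45 against 0 of 8 on plate 1, 7 of 27 against 0 of 16 on plate 2, and 4 of 35 against 0 of 18 on plate 3. The highest level among neurons without Chat was 0.91, and 5 of the 42 held any read. By the same rule, set after the pattern was seen, 20 of all genes compared (0.135%) were detected in at least 10% of neurons with Chat and in none without. The difference in mean level, 0.66, 1.00 and 0.45 by plate with a mean of 0.70, stayed short of a call because most neurons of both classes had none of the transcript. Depth was higher in neurons without Chat, with a median of 5000590 reads against 4204550, although fewer genes were detected in them (7884 against 8976) and 14 of 42 carried the smooth muscle list against 20 of the neurons with Chat (18.7%). The neurons without Chat were of unlike kinds. The 26 with Nos1 had a median of 6629550 reads and 9235 genes detected. The 16 with neither transcript had medians of 1251210 reads and 6210 genes, and 10 of these 16 carried the smooth muscle list. Of the 20 neurons with Arc, 18 did not carry that list. The part of depth and detected genes in the Arc counts was not tested. After thinning, Arc was found in 19 neurons with Chat and 0 of 42 without it. Arc was also absent at this threshold from all 26 neurons with Nos1 and no Chat, and was present in 6 of 31 with both.

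Fos was detected in 44 of 86 neurons with Slc17a6 (51.2%, interval 40.1% to 62.1%) and in 21 of 63 without it (33.3%, interval 22.0% to 46.3%). These shares pool plates that hold the classes unequally. Neurons with Slc17a6 numbered 43, 18 and 25 on plates 1, 2 and 3, and those without it 10, 25 and 28. After thinning, Fos was found in 51.2%, 61.1% and 40% of the former by plate and in 20%, 52% and 17.9% of the latter. The differences in mean Fos level were 1.38, 0.13 and 0.87 (mean 0.79), all of 1 sign, with plate 2 near 0. Fos was called without that plate (1.12), with a pseudocount of 0.1 (1.27) and by medians of cells (1.26). In each of these settings more genes were called than the 649 (4.39%) of the main setting. The gained Fos calls are therefore not particular to Fos. Ier2 (1.33, 0.10 and 0.58) and Junb (0.43, 0.55 and 0.72) had the same sign on every plate and means of 0.67 and 0.56. Junb was detected in all 86 neurons with Slc17a6 and in 58 of 63 without. Median depths were 4036520 and 4955280 reads in the 2 classes. Nr4a1, by contrast with Fos, differed by -0.05, -0.06 and 0.47.

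By Chat, Egr1 differed by 0.61, 0.54 and 0.48 and Ier2 by 0.47, 0.45 and 0.77, again short of 1. Fosb differed by -1.12, 1.82 and -0.03 and Nr4a1 by -1.77, -0.50 and 0.55, so plates went against each other. By Nos1, Dusp1 had the largest mean difference (0.71), from -0.61, 1.11 and 1.64, and was called at 1.38 without plate 1. Egr1 had the most negative mean (-0.58), from -0.33, -1.43 and 0.03. Egr1 was detected in 2 of 2, 3 of 12 and 6 of 12 neurons with Nos1 alone on plates 1, 2 and 3, in 20 of 27, 13 of 23 and 16 of 26 with Chat alone, and in 15 of 18, 1 of 4 and 7 of 9 with both. These classes are unequally spread over plates that differ in Egr1, so no pooled share is compared.

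Between plates, Egr1 alone of the 8 members was called in neurons of plate 1 against the other plates, where it was 1.47 above plate 2 and 0.85 above plate 3 (mean 1.16). Of all genes compared 13.0% were called, 2.16% as higher and 10.9% as lower on plate 1, but this split turned with the scale: it was 320 higher and 1608 lower on log2(RPKM + 1), 2682 and 2079 with a pseudocount of 0.1, and 1509 and 1557 on log2(CPM + 1). Without plate 2, only the difference between plates 1 and 3 remained, so the rule of 1 sign could not fail. Egr1 at 0.85 was then not called, while Fos (1.33) and Nr4a1 (1.25) were called higher on plate 1 by size alone. The share of all genes called in that setting is not given here. Wells of a plate were pooled into 1 library, so plate and library pool cannot be told apart, nor can plate 1 and its own column tag.

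The correlation between members over neurons, taken as Spearman's rho within each plate and averaged over plates, had a median of 0.05 over the 36 pairs and of 0.09 over the 28 pairs of the 8 members compared. Over all pairs of genes compared the median was 0.07, so the middle pair of members lay near the middle pair of all genes. These cells share a plate and a library pool, and the values are a description with no test. A rho of 0.3 or more was found for 5 of 36 pairs, against 2.42% of all pairs, and 13 of 36 pairs were positive on every plate. The 5 pairs were Junb with Ier2 (0.48, 0.30 and 0.33), Egr1 with Ier2 (0.48, 0.43 and 0.20), Fos with Nr4a1 (0.34, 0.41 and 0.33), Junb with Egr1 (0.64, 0.23 and 0.20) and Fos with Junb (0.30, 0.36 and 0.28), over 53, 43 and 53 neurons. Arc and Npas4 had a rho between -0.10 and 0.18 with every other member, and both were at 0 in most neurons.

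Dusp1 stood apart from the rest. Its rho was negative with Fosb (-0.43, -0.09 and -0.32), Egr1 (-0.02, -0.39 and -0.30) and Fos (-0.31, -0.04 and -0.14) on every plate, and its rho with each of the 8 other members had a mean at or below 0. By Pearson's r the means with Ier2, Junb and Nr4a1 were 0.14, 0.08 and 0.02, and those with the remaining members were below 0. In the 55 other cells the pattern of rho was different in value. The median over the 36 pairs was 0.23, Fos and Egr1 reached 0.69 (0.73, 0.80 and 0.55), Fosb and Dusp1 0.54, and Fos and Fosb 0.45, over 13, 23 and 19 cells. The part of the smooth muscle markers in these correlations was not tested. The difference between neurons and other cells in rho was not tested.

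**Figure D5:**
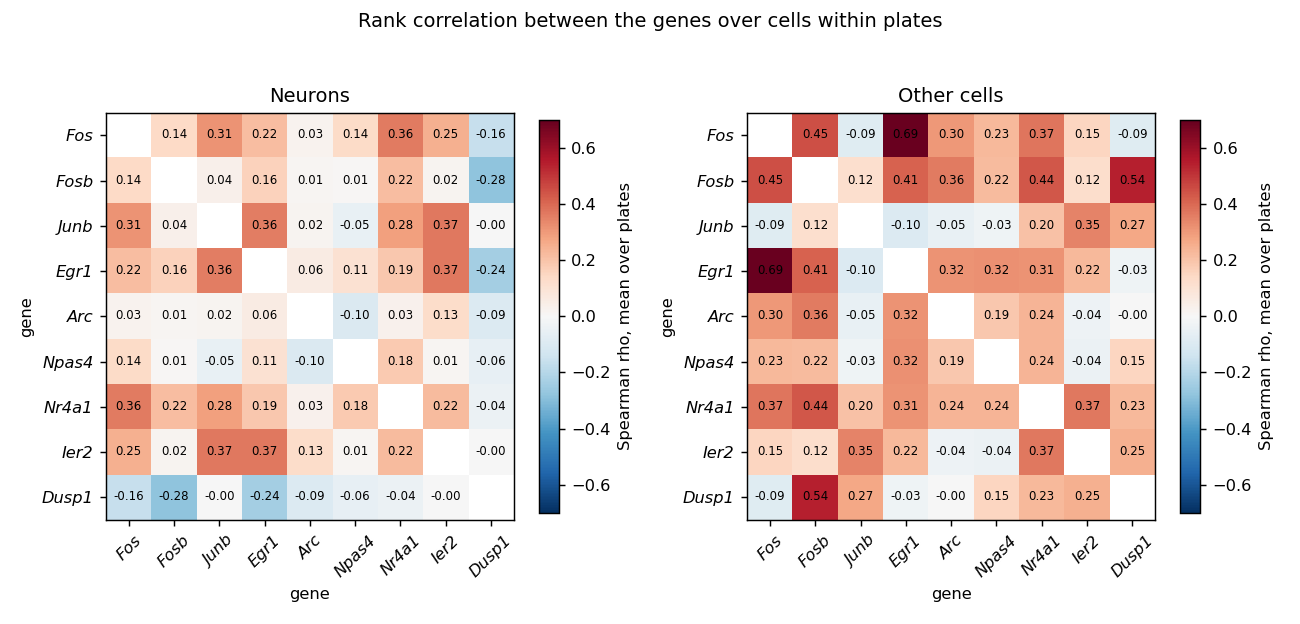
Spearman's rho between the 9 genes over cells within plates, averaged over 3 plates, in 149 neurons (left) and 55 other cells (right), on a colour scale from -0.7 to 0.7. In neurons Fos, Junb, Egr1, Nr4a1 and Ier2 form the redder block and the Dusp1 row is pale or blue. In other cells Fos with Egr1 is the strongest pair, at 0.69.

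The genes most like the mean of the 9 members over neurons were ranked by their lowest plate rho among 10174 genes detected in at least 20% of neurons. Phlda1 led with 0.42, 0.41 and 0.45, followed by Hbegf (an EGF-family growth factor), Vps37b, Gem (a small GTP-binding protein), Spry2 (an inhibitor of receptor tyrosine kinase signalling), Cdkl3, Tceal6, Sdpr, Irs2 (an insulin receptor substrate) and Prkd2, the last at a lowest rho of 0.31. For single members, Pcp4l1 and Fgfr1 stood closest to Fos (lowest rho 0.36 and 0.35), with Nr4a1 next (0.33). Hbegf and Sdpr were closest to Junb (both 0.36), Slc8a2 to Egr1 (0.22), Klf4 after Fos to Nr4a1 (0.32), Prosc and Vgf to Ier2 (0.36 and 0.34), and Zfp941 and Cxxc5 to Dusp1 (both 0.42). Hbegf was detected in 43.6% of neurons and 70.9% of other cells, and Zfp941 in 73.8% and 1.82%. These ranks are the highest of many genes.

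Across neurons the mean of the members correlated with the mean of 31 other early response genes at a rho of 0.55 (0.35, 0.68 and 0.62 by plate) and with that of 9 other AP-1 genes at 0.33. For 13 heat shock and dissociation stress genes the values were -0.20, -0.10 and 0.58. Counts of detected markers of other cells also went with the member mean, at 0.30 for endothelial, 0.31 for leukocyte and 0.21 for smooth muscle markers. For Dusp1 these values were -0.24, 0.13 and -0.19. Fibroblast markers had a rho of 0.12 with the member mean and -0.28 with Dusp1. Epithelial, mesothelial and enteric glia markers had a rho of 0.23, 0.19 and 0.07 with the member mean. By plate, smooth muscle markers had 0.23, 0.39 and 0.03 with the member mean, and epithelial markers 0.19, 0.25 and 0.26. Reads per cell went with the member mean at 0.11, -0.13 and 0.46 on plates 1, 2 and 3 (mean 0.15), and genes detected at 0.06, 0.07 and 0.41. The part of these in the member levels was not tested.

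Related genes were described by the same call between neurons and other cells, beside the 28.4% of all genes called. Of 7 other AP-1 genes compared, 2 were higher in neurons, Jund (mean difference 2.49) and Jun (1.39), and 2 were lower, Fosl1 (-2.50) and Mafk (-1.47). Of 26 other early response genes compared, 3 were higher (Klf10 1.25, Per1 1.19 and Gadd45g 1.08) and 10 lower, led by Cyr61 (-3.71), Gadd45b (-3.07), Zfp36 (-2.97) and Myc (-2.05). The median of that list was -0.78, against 0.46 over all genes. Of 9 late activity-response genes 4 were higher and none lower: Scg2 (6.30) and Vgf (5.31), secreted granule proteins, Pcsk1 (3.68), a prohormone convertase, and Bdnf (1.03), a neurotrophin. Of 15 upstream kinase genes 8 were higher, led by Prkaca (2.39), Prkacb (1.88), Mapk14 (1.66) and Mapk9 (1.15), and of 17 upstream transcription factor genes Crem (2.51) and Atf2 (1.23) were higher. None of 13 heat shock genes was called.

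Genes of these lists were also called within neurons. By transmitter gene 0 of 8 members were called, which is near the low shares of all genes called and is no contrast with these lists. With Slc17a6, beside 3.89% of all genes higher and 0.500% lower, Plk2 (2.15), Ier5 (1.63) and Dusp5 (1.08) of the 26 other early response genes were higher and Myc (-1.09) was lower, and of the late genes Scg2 (1.51), Bdnf (1.28) and Pcsk1 (1.03) were higher and Rgs4 (-1.11) lower. With Chat, beside 9.06% of all genes higher and 0.372% lower, 5 of 26 early response genes were higher, led by Klf10 (1.61), Ier5 (1.48), Plk2 (1.36) and Klf6 (1.16), and none was lower. Of the 9 late genes compared 3 were higher with Chat, Pcsk1 (1.53), Scg2 (1.49) and Cdkn1a (1.28), and none was lower. With Nos1, beside 0.690% higher and 0.419% lower, Cyr61 (-1.26) was the early response gene called, as lower, and the late genes Cdkn1a (-1.34) and Rgs4 (-1.30) were lower. No other AP-1 gene was called in these 3 divisions. On plate 1, beside 2.16% of all genes higher and 10.9% lower, 5 of the 26 were higher in neurons than on the other plates, led by Ier3 (1.86), Cyr61 (1.51), Ier5 (1.27) and Klf10 (1.19), as was the AP-1 family gene Atf3 (1.16), while the AP-1 gene Jund (-1.03) was lower.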

How the data were processed

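Single cells of the mouse distal colon were profiled by RNA sequencing, with wells pooled by plate, per the labels' protocols. The authors deposited log2(RPKM + 1) values for 49492 genes, and the submitters' processing notes name mm10. How reads were aligned and counted is not given in the sources used here. The values themselves showed base 2 and an offset of 1. Whole reads were recovered from the deposited values with GENCODE M21 exon lengths or, where these did not match, the smallest length that gave whole numbers. With the annotated length alone, 81.6% of 2190284 values above 0 were whole within 0.0001. With the lengths so chosen for 8861 genes it was 100% of 2375655 values, which for those genes follows from the choice.

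Each plate is 1 sample, so no test was made and no p-value is given. Classes of cells were compared by mean log2(RPKM + 1) within plates holding at least 5 cells of each class. A gene was called where the mean over plates was 1 or more in size with 1 sign, among genes at 2 or more in 10% of cells. Named genes are all 9 members, up to 4 called genes of each list with the largest differences, the 10 genes most like the member mean and up to 3 most like each member. Where fewer are named, the rest stand in counts. The members and lists were chosen with earlier results of these data known. The division of other cells by smooth muscle markers, its alternatives and the rule of detection in 1 class and in none of the other were chosen after seeing the data. Alternatives changed the pseudocount, scale, detection threshold, neuronal rule, call rule, summary over cells, correlation and plates used. Promoters came from RefSeq (GRCm38.p6). The scripts were tested on simulated data. Python 3.11.15, numpy 2.4.6, pandas 2.3.3, scipy 1.17.1 and matplotlib 3.10.9 were used.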

Additional observations from a re-analysis of the deposited data

Results flagged for a closer look

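Ier2 in neurons against other cells had plate differences of opposite direction, -1.57 on plate 1, 0.42 on plate 2 and 1.46 on plate 3. Fosb in neurons with against without Chat differed by -1.12, 1.82 and -0.034 on plates 1, 2 and 3. In other cells with against without the smooth muscle markers, Junb differed by 1.32, -1.66 and -0.45, and Dusp1 by 0.96, -1.74 and 1.38, on the same plates. These were picked out because the plates moved in opposite directions, and the difference between plates was not tested.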

How the results depend on the processing

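No paired analysis was possible because the numbers shared between plates only name cells. Of the differences of single members under the alternatives, 639 stayed on their side of the call rule, of which 74, all of them not called, changed sign; 21 gained a call, 6 lost one and no called difference changed sign. Of the shares of neurons with a member, 8 moved beyond their interval and 100 did not. The cause was not tested. The number of neurons was 96 without plate 1 and 96 without plate 3. The median number of members per neuron was 5 without plate 3 and 5 with detection at 1. The median correlation between members was 0.126 by Pearson's r. Genes called numbered 4200 for neurons against other cells, 649 for Slc17a6, 1395 for Chat, 1928 for plate 1 and 1582 for the smooth muscle markers in other cells, and were 1.11% of genes for Nos1. With a pseudocount of 0.1 RPKM they numbered 7395, 2504, 4393, 4761 and 3601, and 741 for Nos1. On log2(CPM + 1) they numbered 1626 for Slc17a6, 3167 for Chat, 399 for Nos1, 3066 for plate 1 and 2854 for the smooth muscle markers. Without plate 1 they numbered 1068 for Slc17a6, 551 for Nos1 and 2965 for the smooth muscle markers, and without plate 2, 1014 for Slc17a6 and 2189 for Chat. By medians of cells they numbered 1052 for Slc17a6 and 333 for Nos1. Detection at 1 gave 1150 for Slc17a6, and detection at 3 gave 297 for Nos1. A difference of 1 on every plate left 2216, 189 and 373 for the first 3 comparisons and 34 for Nos1. For Nos1, 62.2% of the genes called were higher, and 41.1% with detection at 3. The median difference of all genes between neurons and other cells was 0.46, 0.93 with the pseudocount of 0.1 and 0.65 on log2(CPM + 1), so these differences are relative to that shift.

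Calls ended for Junb in neurons against other cells with 4 of 5 markers and without plate 1, for Junb and Dusp1 under the rule of 1 on every plate, and for Egr1 on plate 1 without plate 2 and under that rule. Calls were gained by Chat for Dusp1 without plate 2 (1.00), Nr4a1 without plate 3 (-1.14), Egr1 without carriers of the smooth muscle list (1.08) and by medians of cells (1.24), Fosb with detection at 1 (1.07) and Arc with the pseudocount of 0.1 (1.33). Nr4a1 in neurons against other cells was also called by medians of cells (-2.52). In other cells divided by smooth muscle markers, Junb (-1.06) and Ier2 (-1.65) were called without plate 1, Dusp1 (1.17) without plate 2, Nr4a1 without plate 3 (1.82) and with the pseudocount of 0.1 (1.46), and Arc (1.02) with that pseudocount. The gained calls of Fos, of Dusp1 by Nos1, of Egr1 in neurons and of Nr4a1 by plate stand with their results. With 1 sample for each plate no spread between animals is known, and transcripts near 1 or 2 reads are not resolved at the lowest depth.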
